A study of Mus musculus with 8 samples.

Results

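The genes described here are 44 cyclins, cyclin-dependent kinases, replication factors and mitotic genes, chosen by name from a list. That choice was made with earlier results of these data known. Of the 44 genes, 38 had a probe under their symbol in the annotation of the array, and 33 of these were bright enough to test, all of them above background on all 8 arrays. They were measured in cultured keratinocytes, the epithelial cells of the epidermis, of type I keratin knockout mice (KO) and of wild-type mice, both labelled as C57Bl6. Type I keratins are acidic proteins, and each filament of an epithelial cell needs them together with the basic type II proteins. The keratinocytes were taken from the skin of embryos at day E18.5, late in gestation, and grown in keratinocyte medium to confluency before total RNA was extracted. Each genotype had 4 Illumina arrays, numbered 1, 2, 3 and 1.1, and the labels describe array 1.1 as a second array of replicate 1. Whether the replicates stem from different embryos or cultures is not stated in the labels, and the p-values reflect no more than the spread among these samples, which may be technical.

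A dividing cell passes through G1, copies its DNA in S phase and segregates the copies in mitosis. D-type cyclins with their kinases inactivate the retinoblastoma family of pocket proteins in G1, which frees E2F factors to switch on S-phase genes. Genes of G2 and mitosis are switched on later through B-MYB and FOXM1, and cultured keratinocytes leave the cycle as they differentiate or as they are held at confluency. The 20 S-phase members are E2f1, the E-type cyclins and the licensing, replication fork and nucleotide supply genes, and the 20 mitotic members act from G2 onwards. Ccnd1, Ccnd2, Cdk2 and Cdk4 were kept apart as G1 members.

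The promoters of the S-phase and mitotic members carried different letters. RefSeq promoters of build GRCm38.p6, each 300 bases long (250 before and 50 after the start), were listed for 33 of the 44 members. The 17 S-phase promoters belong to 16 genes, because Mcm7 has 2 windows, both with an E2F-type motif. These 33 members are not the 33 tested on the arrays: Pola1, for example, has a promoter but was not tested, and Mcm4 the reverse. An E2F-type motif (on either strand) was present in 12 of 17 S-phase promoters (70.6%), in 3 of 15 mitotic promoters (20.0%) and in 9.57% of all 32851 promoters. The letters searched for it were TTCCCGC with the variants spelled TTCGCGC and also TTGCCGC and also TTGGCGC. The CHR motif of late cell cycle genes (TTTGAA, either strand) was present in 1 of 17 S-phase promoters (5.88%), in 11 of 15 mitotic promoters (73.3%) and in 17.9% of all promoters. The CCAAT box (CCAAT, either strand) was present in 11 of 17 S-phase and 14 of 15 mitotic promoters, against 37.4% of all. A match is a description of the letters and does not show that a factor binds there. The promoters of Mcm6, Mcm7, Kif11 and Plk1 are shown because the results below turn on these genes, and Ccnd1 is not in the promoter table. Capitals mark the E2F-type, CHR and CCAAT motifs, which overlap each other in places, and each sequence is written 5′ to 3′ on the strand of the gene.
Mcm6: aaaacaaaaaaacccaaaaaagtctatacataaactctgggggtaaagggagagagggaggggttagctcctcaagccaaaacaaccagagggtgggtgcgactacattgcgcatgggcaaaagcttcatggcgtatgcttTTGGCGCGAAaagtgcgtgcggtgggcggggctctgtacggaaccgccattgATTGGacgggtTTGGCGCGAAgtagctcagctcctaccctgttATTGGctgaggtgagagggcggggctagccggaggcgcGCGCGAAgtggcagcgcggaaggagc
Mcm7: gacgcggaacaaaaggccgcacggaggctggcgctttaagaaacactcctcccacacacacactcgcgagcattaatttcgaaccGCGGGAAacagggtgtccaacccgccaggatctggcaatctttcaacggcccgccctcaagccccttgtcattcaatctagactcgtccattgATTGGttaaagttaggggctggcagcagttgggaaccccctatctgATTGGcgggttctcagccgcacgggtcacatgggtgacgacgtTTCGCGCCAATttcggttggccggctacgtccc
Kif11: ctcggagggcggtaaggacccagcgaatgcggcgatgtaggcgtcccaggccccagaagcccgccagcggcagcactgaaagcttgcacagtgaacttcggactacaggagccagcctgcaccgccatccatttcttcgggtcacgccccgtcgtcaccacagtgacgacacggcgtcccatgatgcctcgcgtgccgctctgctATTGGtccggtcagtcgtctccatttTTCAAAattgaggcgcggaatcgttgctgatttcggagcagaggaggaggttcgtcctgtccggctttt
Plk1: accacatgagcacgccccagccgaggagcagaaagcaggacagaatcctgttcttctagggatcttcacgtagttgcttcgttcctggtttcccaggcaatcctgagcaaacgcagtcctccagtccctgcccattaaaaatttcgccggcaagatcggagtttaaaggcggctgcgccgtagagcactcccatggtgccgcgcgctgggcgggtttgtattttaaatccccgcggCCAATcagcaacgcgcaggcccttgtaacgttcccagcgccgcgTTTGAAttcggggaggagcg
The Mcm6 window lies at chr1:128359656-128359955, minus strand, and holds 5 E2F-type motifs, 0 CHR motifs and 2 CCAAT boxes. The first of the listed Mcm7 windows lies at chr5:138171834-138172133, minus strand, and holds 3 E2F-type motifs, 0 CHR motifs and 3 CCAAT boxes. The Kif11 window lies at chr19:37376132-37376431, plus strand, and holds 0 E2F-type motifs, 1 CHR motif, read on the other strand, and 1 CCAAT box. The Plk1 window lies at chr7:122159185-122159484, plus strand, and likewise holds 0 E2F-type motifs, 1 CHR motif and 1 CCAAT box.

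The arrays followed their genotype labels: the deleted genes Krt14 and Krt17 read at most 9.28 and 0.81 on KO arrays, against at least 17836 and 16655 on wild-type arrays (intensity, a background-subtracted probe brightness in which values up to 6.30 were taken as background). KO array 1.1 differed from KO 3 by an SD of 0.213 in log2 units over 14453 bright probes and from KO 1 by an SD of 0.640, and wild-type 1 from 1.1 by an SD of 0.205. KO 3 was therefore averaged with KO 1.1, against the label, and wild-type 1 with 1.1, which left 3 KO and 3 wild-type replicates. Wild-type replicate 3 differed from every other array by over 2 on the log2 scale at 47 probes, among them Ttr, a liver-made transport protein, at 3828 against at most 16.5 elsewhere. KO replicate 3 did so at 45 probes and wild-type replicate 1 at 5, and 2 of these 5 probes belong to members, Plk1 and Mcm6. The keratinocyte markers with a probe were above background on all arrays, 7 of 7. Of the 5 leukocyte markers, Ptprc, Cd52 and Tyrobp were above background on no array. Laptm5 was above it only on wild-type array 3 (9.01) and Cd74 only on KO array 3 (7.19). Endothelial markers summed to 13.1 to 34.9 on KO arrays and 5.95 to 17.4 on wild-type arrays. Fibroblast markers summed to 12.9 to 432 on KO arrays and 34.8 to 903 on wild-type arrays. Most of this sum was Dcn alone, at 13.7 to 332 on KO arrays and 39.4 to 790 on wild-type arrays. Col1a2 and Postn were above background on no array. Melanocyte markers summed to 355 to 1614 on KO arrays and 916 to 3469 on wild-type arrays. In bulk RNA, fewer cells of a type and less RNA per cell cannot be told apart.

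KO and wild-type keratinocytes differed little in the S-phase and mitotic members. The median log2 difference (KO minus wild type, on the log2(intensity + 16) scale) was -0.05 over the 17 S-phase members tested and -0.01 over the 13 mitotic members, beside 0.02 over all 9881 genes tested. The mitotic median thus exceeded the S-phase median by 0.04, less than the SD of 0.08 with which this difference varied between replicates. Individual members ran from -0.49 for Rfc4 to 0.55 for Mcm7 in the S-phase set, and from -1.15 for Plk1 to 0.23 for Ccna2 in the mitotic set. KO lay below wild type in 12 of 17 S-phase and 8 of 13 mitotic members, against 47.5% of all genes.

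No member passed limma's test after Benjamini-Hochberg adjustment over all genes (0 of 33 at an adjusted p under 0.05, against 0.708% of all genes). At an unadjusted p under 0.05 there were 3 members, Ccnd1, Kif11 and Mcm6, or 9.09% of those tested, against 17.1% of all genes. The replicates of the genotypes did not overlap in 5 members, or 15.2%, against 22.5% of all genes. These 5 were Ccnd1, higher in KO, and Cdk2, Mcm6, Kif11 and Cenpa, lower in KO. On the log2(intensity + 16) scale, the 95% interval of the difference lay within 1 of 0 for 29 of 33 members, against 78.2% of all genes. The exceptions were Ccnd1, Mcm7, Rfc4 and Plk1. For most members a difference beyond 1 on this scale was thus outside the interval, while smaller differences remain possible. With 16 added to each intensity, a difference of 1 is about 2-fold for bright members and more for dim ones.

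**Figure D1:**
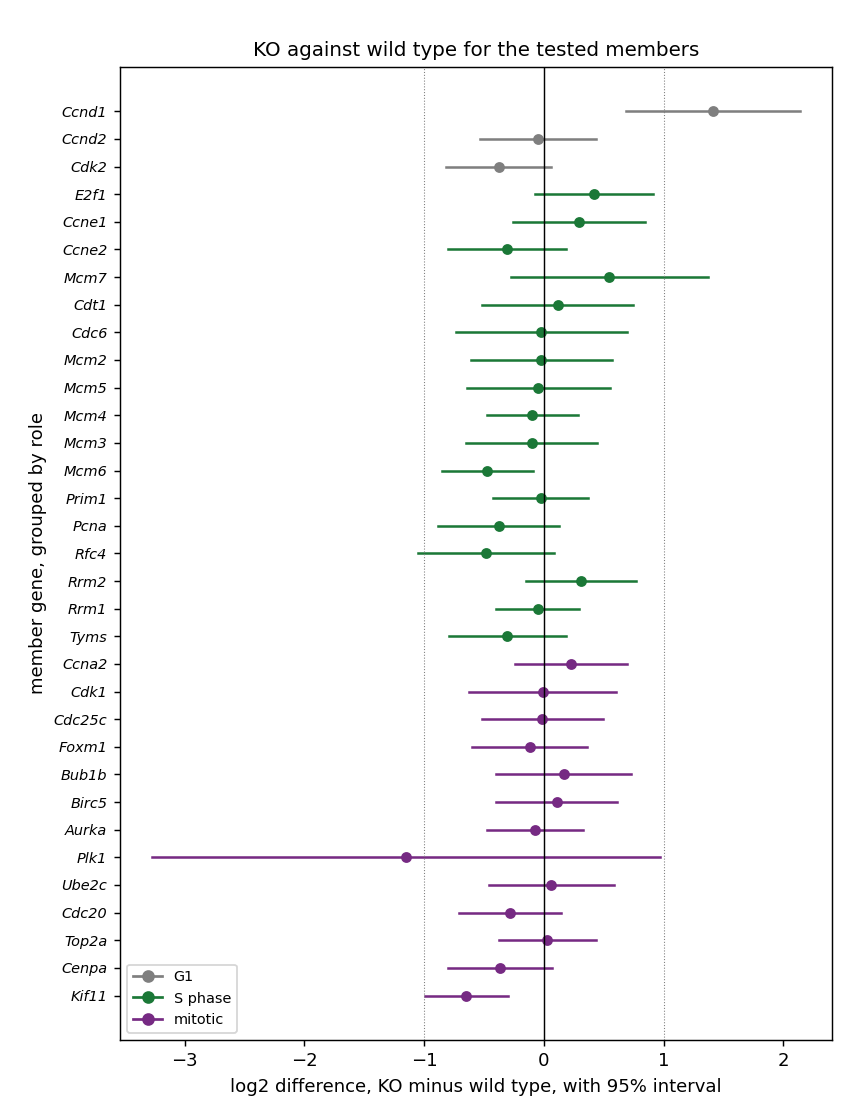
Log2 difference, KO minus wild type, on the log2(intensity + 16) scale (x axis) for the 33 members tested (y axis, grouped by role), with limma's 95% interval as a line. Ccnd1 stands apart at 1.41, the interval of Plk1 runs from -3.27 to 0.97, and the dotted lines mark a difference of 1 either way.

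The member with the largest positive difference was Ccnd1, cyclin D1, which activates Cdk4 and Cdk6 in G1. Its tested probe read 8950, 7523, 5746 and 5498 on KO arrays 1, 2, 3 and 1.1, against 2554, 1932, 4207 and 2353 on wild-type arrays 1, 2, 3 and 1.1. Every KO array was brighter than every wild-type array, with wild-type 3 the closest. Ccnd1 averaged 7364 ± 1670 in KO cells and 2864 ± 1192 in wild-type cells (± SD over 3 replicates of each). The log2 difference was 1.41 ± 0.31 (SE), or 2.66-fold, with a 95% interval of 0.68 to 2.14 and a limma adjusted p of 0.0926. The other bright probes of the gene differed by 1.45 and 1.69, and on each of them too all KO arrays lay above all wild-type arrays. Without wild-type replicate 3, the array with the liver transcripts, the difference was 1.73 and passed (limma adjusted p = 0.0461). It did not pass without wild-type replicate 1 (1.34, adjusted p = 0.317) or without KO replicate 3 (1.59, adjusted p = 0.0544), and over 17 alternatives it ran from 1.17 to 1.73 with adjusted p values of 0.0195 to 0.317.

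The other G1 members tested were not higher in KO. Ccnd2, cyclin D2, a close relative with the same partners, read 3410, 4545, 2589 and 2780 on KO arrays 1, 2, 3 and 1.1, against 3724, 3678, 3501 and 3410 on wild-type arrays 1, 2, 3 and 1.1. The KO readings bracketed the wild-type ones, and the log2 difference was -0.05 with a 95% interval of -0.53 to 0.44. Cdk2, the partner of cyclins E and A, read 1628, 1766, 1268 and 1263 on KO arrays 1, 2, 3 and 1.1, against 2306, 1786, 1926 and 2384 on wild-type arrays 1, 2, 3 and 1.1. Its KO replicates all lay below the wild-type replicates, but by a margin of only 1766 in KO replicate 2 to 1786 in wild-type replicate 2. The log2 difference of Cdk2 was -0.38 ± 0.19 (SE; limma adjusted p = 0.353), and its 3 other probes differed by -0.22 to -0.37. Without KO replicate 3 the difference of Cdk2 was -0.24. Cdk4 has no probe under its symbol here.

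**Figure D2:**
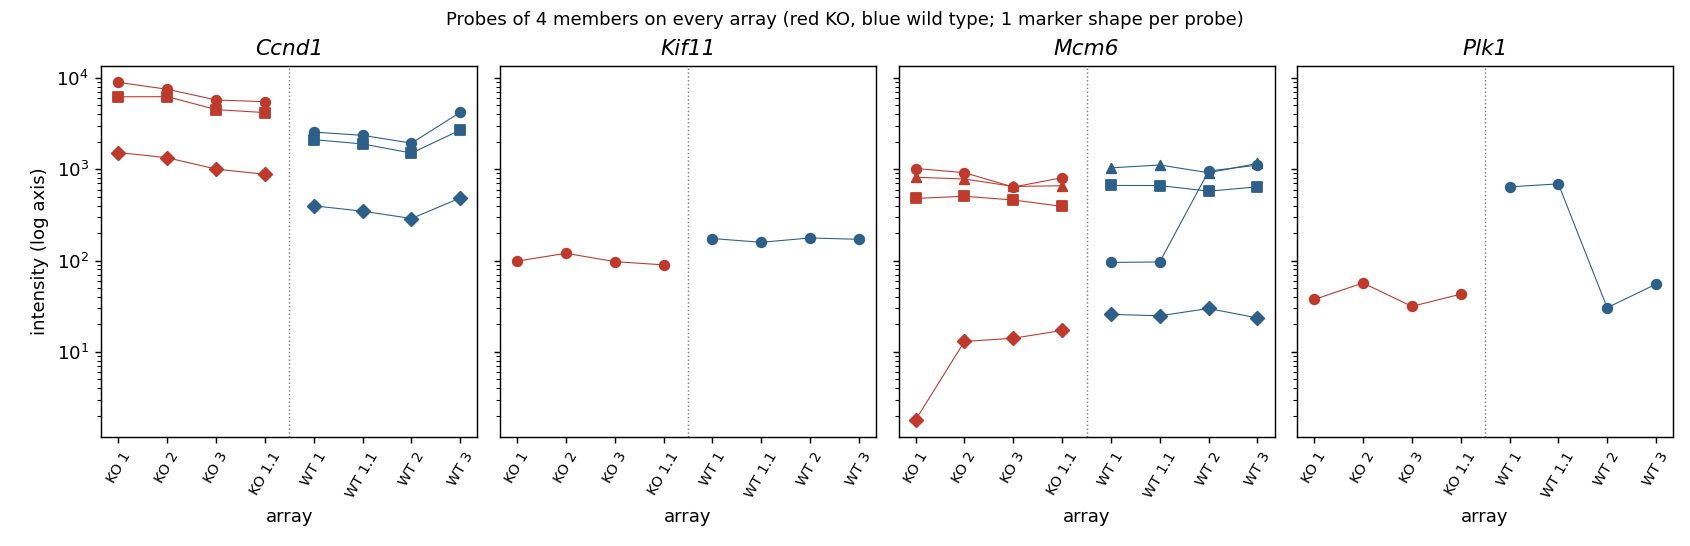
Intensity on a log axis (y) of every bright probe of Ccnd1, Kif11, Mcm6 and Plk1 on each of the 8 arrays (x; KO left in red, wild type right in blue), with 1 marker shape per probe. The 3 Ccnd1 probes are higher on all KO arrays, 3 of the 4 Mcm6 probes are lower there, and 1 Mcm6 probe and the Plk1 probe set wild-type arrays 1 and 1.1 apart.

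Among the genes of S-phase entry, E2f1, the factor released from the pocket proteins, read 432, 523, 322 and 363 on KO arrays 1, 2, 3 and 1.1, against 386, 252, 347 and 326 on wild-type arrays 1, 2, 3 and 1.1. KO replicate 3 lay within the wild-type range, and the log2 difference was 0.42 ± 0.21 (SE; limma adjusted p = 0.365). The E-type cyclins, which activate Cdk2, went in opposite directions without passing, Ccne1 by 0.29 and Ccne2 by -0.31. Ccne1 was, with Bub1b, brightest in KO replicate 3, at 75.4 against 33.7 and 52.4 in KO replicates 1 and 2, while wild-type replicates read 33.7 to 44.3.

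The licensing genes load the MCM2-7 helicase onto origins. All 8 were tested, with a median log2 difference of -0.04, and 6 of the 8 were below wild type. Mcm6, a subunit of the helicase, read 817, 783, 648 and 660 on KO arrays 1, 2, 3 and 1.1, against 1036, 916, 1157 and 1113 on wild-type arrays 1, 2, 3 and 1.1. No KO array reached the wild-type range, and the log2 difference was -0.47 ± 0.16 (SE), with a 95% interval of -0.85 to -0.09 and a limma adjusted p of 0.204. Of its other bright probes, 2 also lay lower in all KO replicates, at -0.41 and -0.73. The remaining probe read 1019, 918, 638 and 808 on KO arrays 1, 2, 3 and 1.1, against 95.3, 955, 1111 and 96.5 on wild-type arrays 1, 2, 3 and 1.1. This probe was thus dim on the arrays of wild-type replicate 1 alone, and it gave a difference of 0.84. On those arrays each other Mcm6 probe read within or above its range on wild-type arrays 2 and 3. Averaging all probes moved the Mcm6 difference to -0.19 (adjusted p = 0.728).

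Mcm7, another helicase subunit, read 388, 260, 135 and 129 on KO arrays 1, 2, 3 and 1.1, against 168, 131, 181 and 165 on wild-type arrays 1, 2, 3 and 1.1. KO 1 and 2 were above every wild-type array, and KO 3 with 1.1 was at the low end of the wild-type range. Its log2 difference was 0.55 ± 0.35 (SE; limma adjusted p = 0.476), and without KO replicate 3 it was 0.94 (adjusted p = 0.0767). The remaining subunits Mcm2, Mcm3, Mcm4 and Mcm5 differed by -0.02, -0.10, -0.10 and -0.05, and the loading factors Cdc6 and Cdt1 by -0.02 and 0.11. Mcm5 averaged 1953 ± 335 in KO cells and 2062 ± 626 in wild-type cells (± SD over 3 replicates of each), so the spread within a genotype was larger than the difference.

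Genes of the replication fork and of nucleotide supply did not pass either. Pcna, the sliding clamp of the polymerases, averaged 211 ± 47.1 in KO cells and 277 ± 53.3 in wild-type cells (± SD over 3 replicates of each), a log2 difference of -0.38 ± 0.22 (SE). Rfc4, of the clamp loader, averaged 462 ± 119 in KO cells and 648 ± 143 in wild-type cells (± SD over 3 replicates of each), a difference of -0.49 with a 95% interval of -1.05 to 0.08. Without KO replicate 3 the differences were -0.19 for Pcna and -0.27 for Rfc4. Without wild-type replicate 1 that of Pcna was -0.23, and without wild-type replicate 2 that of Rfc4 was -0.32. Prim1, of the primase, differed by -0.03. Rrm1 and Rrm2, the subunits of ribonucleotide reductase, differed by -0.05 and 0.31, and Tyms, thymidylate synthase, by -0.31. The probes of Rrm2 disagreed in sign (0.31 and -0.13), as did those of Tyms, Cdk1 and Cdc25c, while 7 of the 12 members with several bright probes had all probes on one side. The probes of opposite sign were close to background for Cdk1 (at most 15.9) and Tyms (at most 24.6). Among the 7, the untested Mcm4 probes were too (at most 11.4), so the signs of these probes carry little weight. Pola1, the catalytic subunit of DNA polymerase alpha, was above background on no array, and Gins1 and Gins2 have no probe under their symbols here.

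In the mitotic set, Kif11 had the lowest unadjusted p. Kif11 encodes the motor that pushes the spindle poles apart, and its CHR-bearing promoter is shown above. It read 98.4, 120, 97.3 and 89.6 on KO arrays 1, 2, 3 and 1.1, against 174, 177, 171 and 158 on wild-type arrays 1, 2, 3 and 1.1. All KO arrays lay below all wild-type arrays. Kif11 averaged 104 ± 14.2 in KO cells and 171 ± 5.28 in wild-type cells (± SD over 3 replicates of each), a log2 difference of -0.65 ± 0.15 (SE), or 1.57-fold lower in KO. The 95% interval was -0.99 to -0.30 and the limma adjusted p was 0.0981. Over 17 alternatives the difference ran from -0.74 to -0.49 and passed in 1 of them, with array weights (adjusted p = 0.0416). The gene had 1 probe, so no other probe could be set beside it.

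The other motor, centromere and chromosome genes were closer together. Cenpa, the histone variant that marks centromeres, read 2977, 3209, 2095 and 2153 on KO arrays 1, 2, 3 and 1.1, against 3378, 3594, 3552 and 3481 on wild-type arrays 1, 2, 3 and 1.1. The KO arrays all lay lower, by a log2 difference of -0.37 ± 0.19 (SE; limma adjusted p = 0.366), and without KO replicate 3 it was -0.19. Top2a, the topoisomerase that untangles chromosomes, averaged 780 ± 53.3 in KO cells and 770 ± 140 in wild-type cells (± SD over 3 replicates of each), a difference of 0.03 with a 95% interval of -0.37 to 0.43. Cenpe was above background on no array, Kif20a only on KO array 1 at 7.96, and Mki67 has no probe under its symbol here.

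None of the tested regulators of mitotic entry passed, and their intervals were wide. Cdk1, the kinase that drives mitosis, averaged 951 ± 331 in KO cells and 924 ± 108 in wild-type cells (± SD over 3 replicates of each). Its KO readings of 932, 1291, 651 and 608 on arrays 1, 2, 3 and 1.1 spanned the wild-type readings of 870, 843, 1046 and 894 on arrays 1, 2, 3 and 1.1. Cdk1 differed by -0.01 (95% interval -0.62 to 0.60) and Cdc25c, a phosphatase that activates it, by -0.01 (-0.52 to 0.49). Ccna2, cyclin A2, differed by 0.23 (-0.24 to 0.69) and Foxm1, a transcription factor of mitotic genes, by -0.12 (-0.60 to 0.36). Ccnb2, a B-type cyclin, was above background on no array, and Ccnb1 has no probe under its symbol here. Of the mitotic exit genes, Cdc20, an activator of the anaphase-promoting complex, differed by -0.28 and Ube2c, the ubiquitin-conjugating enzyme of that complex, by 0.06. The 3 other bright probes of Cdc20 differed by -0.15, -0.27 and -0.91. The probe at -0.91 read 42.6, 45.5, 65.6 and 57.7 on KO arrays 1, 2, 3 and 1.1, against 110, 96.4, 113 and 113 on wild-type arrays 1, 2, 3 and 1.1. All KO arrays were dimmer there than all wild-type arrays, while on the tested probe the replicates overlapped. Without KO replicate 3 the tested probe differed by -0.12.

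Of the mitotic kinases and checkpoint genes, Aurka, the spindle pole kinase Aurora A, differed by -0.07, Bub1b, of the spindle checkpoint, by 0.17, and Birc5, survivin of the chromosomal passenger complex, by 0.11. Bub1b read 128, 124, 132 and 140 on KO arrays 1, 2, 3 and 1.1, against 142, 72.7, 140 and 139 on wild-type arrays 1, 2, 3 and 1.1, so wild-type 2 was the only low array. The probe of Plk1, polo-like kinase 1, stood apart. It read 37.4, 56.8, 31.4 and 42.8 on KO arrays 1, 2, 3 and 1.1, against 641, 30.4, 55.1 and 692 on wild-type arrays 1, 2, 3 and 1.1. Only wild-type replicate 1 was bright, on both of its arrays, and the other wild-type replicates read like the KO replicates. The log2 difference of -1.15 ± 0.90 (SE; limma adjusted p = 0.572) therefore rested on 1 replicate, and without wild-type replicate 1 it was 0.04. Bub1 was above background on no array, and Aurkb has no probe under its symbol here.

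**Figure D3:**
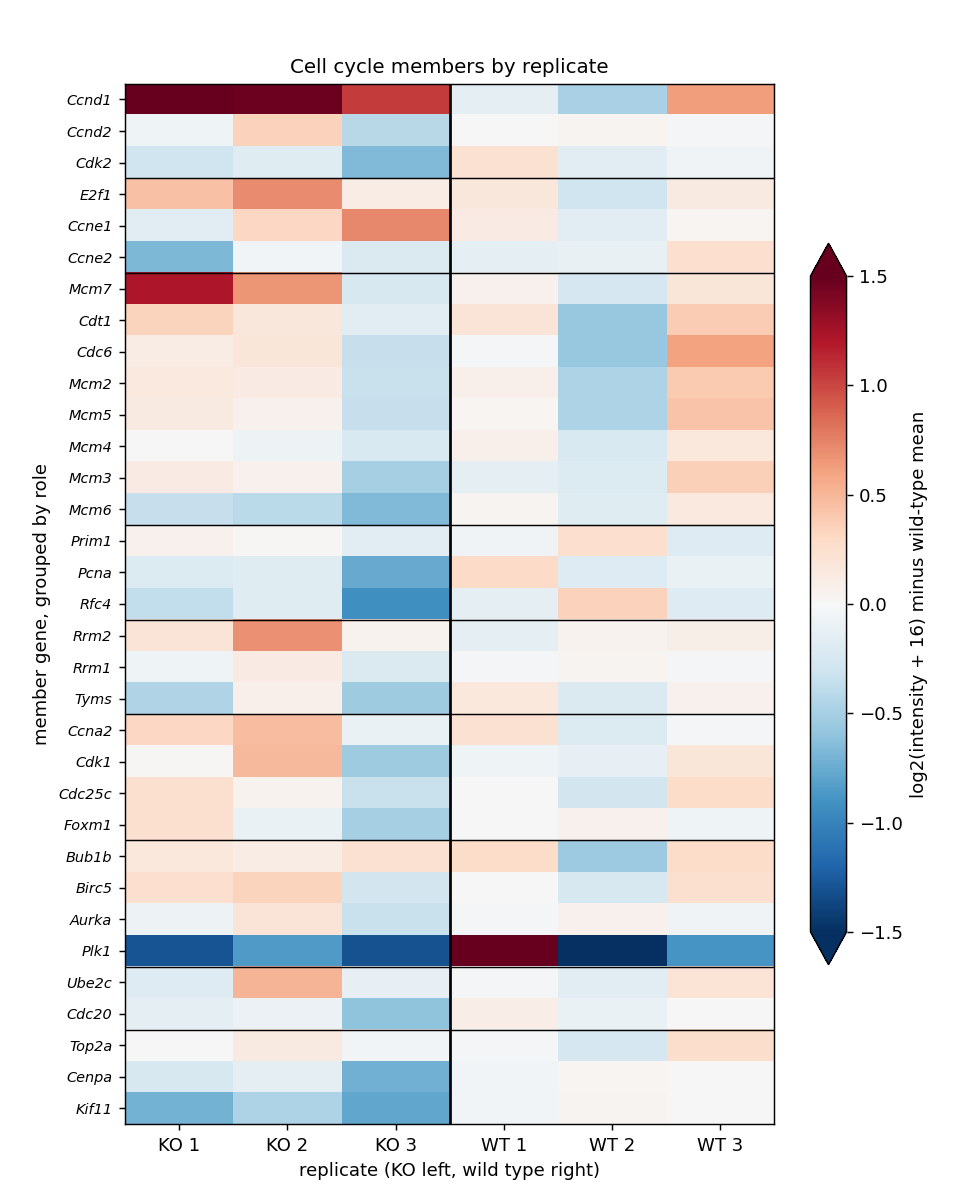
Log2(intensity + 16) of each of the 33 members tested (rows, grouped by role) in each replicate (columns, KO left and wild type right) minus the wild-type mean, as colour. KO replicate 3 is the bluest of the KO columns, Ccnd1 is red in all KO replicates, and Plk1 is red in wild-type replicate 1 alone.

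Levels of the members also differed between replicates of one genotype. KO replicate 3 was the lowest KO replicate for 29 of 33 members, 15 of 17 in the S-phase set and 11 of 13 in the mitotic set, against 44.1% of all genes. The exceptions were Ccne1, Ccne2, Ube2c and Bub1b. In wild type, replicate 2 was the lowest for 23 of 33 members, against 35.3% of all genes, and replicate 3 the highest for 16, against 35.1%. The S-phase median, relative to the wild-type mean of each gene, was 0.07, 0.07 and -0.24 in KO replicates 1, 2 and 3, against 0.04, -0.21 and 0.15 in wild-type replicates 1, 2 and 3. The mitotic median was -0.01, 0.11 and -0.34 in KO replicates 1, 2 and 3, against -0.00, -0.18 and 0.01 in wild-type replicates 1, 2 and 3. The medians of both sets were thus lowest in KO 3, and the ranges of the genotypes overlapped. KO arrays 3 and 1.1, taken singly, gave S-phase medians of -0.32 and -0.27 and mitotic medians of -0.45 and -0.38.

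**Figure D4:**
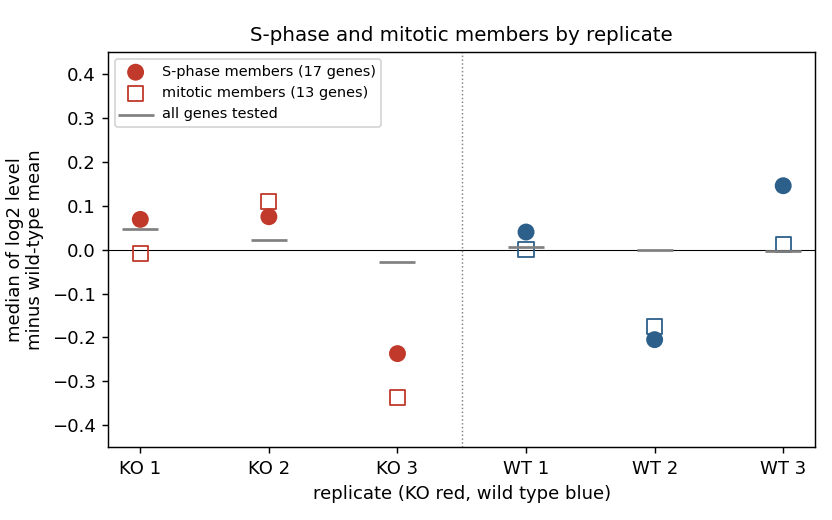
Median over the S-phase members (filled circles, 17 genes), the mitotic members (open squares, 13 genes) and all genes tested (grey dashes) of the log2 level minus the wild-type mean (y axis) in each replicate (x axis, KO in red left, wild type in blue right). KO replicate 3 at -0.24 and -0.34 and wild-type replicate 2 at -0.21 and -0.18 lie below the other replicates.

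Of 7 markers of differentiating keratinocytes with a probe, Ivl, Lor, Tgm1, Sprr1a and Sprr1b were highest in KO replicate 3 among the KO replicates, while Krt1 was not and Dsg1a was above background on no array. The 7 markers summed to 4472, 4542, 16318 and 16727 on KO arrays 1, 2, 3 and 1.1, against 7812, 10025, 4886 and 9101 on wild-type arrays 1, 2, 3 and 1.1. Ivl, involucrin of the cornified envelope, read 105, 132, 788 and 799 on those KO arrays, against 32.2 to 84.9 on wild-type arrays. Lor, loricrin of the same structure, read 227, 266, 2893 and 3181 on the KO arrays, against 167 to 375 on wild-type arrays. Sprr1b, another envelope protein gene, made up most of the sum, at 3733, 3741, 10530 and 10686 on KO arrays 1, 2, 3 and 1.1, against 6173, 8631, 4143.5 and 7244 on wild-type arrays 1, 2, 3 and 1.1. Krt1, a keratin of the first differentiating layer, was dim, at 9.28, 7.77 and 7.62 in KO replicates 1, 2 and 3, against 19.4, 14.4 and 13.8 in wild-type replicates 1, 2 and 3. Its KO replicates all lay lower, by a log2 difference of -0.39 (limma adjusted p = 0.225). The melanocyte sum was lowest on KO arrays 3 and 1.1, at 355 and 415. Among wild-type replicates, Lor, Tgm1 and Sprr1b were highest in replicate 2, the low replicate for most members, and Ivl, Sprr1a and Krt1 in replicate 1. The part of cell composition or differentiation in these member levels was not tested.

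Inhibitors of the cyclin-dependent kinases and the pocket proteins were examined beside the members. Their list too was chosen with earlier results of these data known, which limits the shares below. Of 9 tested from a list of 11, 0 passed limma's adjusted test, while 6 (66.7%) had an unadjusted p under 0.05, against 17.1% of all genes. The same 6 had no overlap of replicates, against 22.5% of all genes, and 1 was higher and 5 were lower in KO. The median log2 difference of the list was -0.49. Cdkn1c, the inhibitor p57, read 324, 792 and 1767 in KO replicates 1, 2 and 3, against 146, 192 and 89.1 in wild-type replicates 1, 2 and 3. All KO replicates lay above all wild-type replicates, but they were spread widely among themselves, and the log2 difference was 2.37 ± 0.57 (SE; limma adjusted p = 0.107). Cdkn2c, the Cdk4 and Cdk6 inhibitor p18, read 38.5, 30.5 and 37.2 in KO replicates 1, 2 and 3, against 93.4, 75.2 and 73.7 in wild-type replicates 1, 2 and 3. Its replicates were close within each genotype, with a difference of -0.91 ± 0.15 (SE; limma adjusted p = 0.0547). Cdkn1b, the inhibitor p27, differed by -0.90 ± 0.32 (limma adjusted p = 0.223). The remaining 3, named after their values were seen, were the pocket protein genes Rb1 (-0.68) and Rbl1 (-0.54) and the p53-inducible inhibitor Cdkn1a (-0.49). Cdkn1a averaged 1626 ± 83.6 in KO cells and 2338 ± 572 in wild-type cells (± SD over 3 replicates of each).

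**Figure D5:**
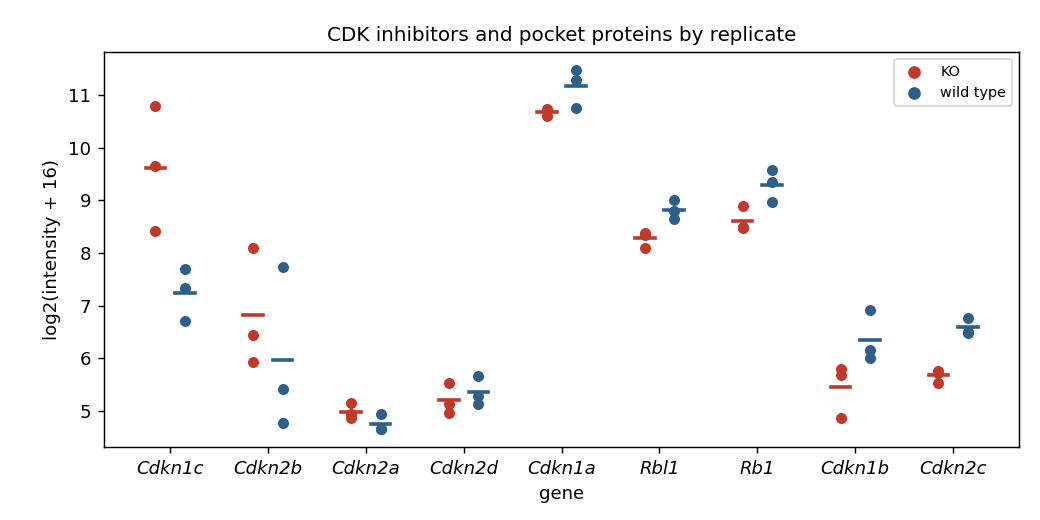
Log2(intensity + 16) in each replicate (points) and the mean (bar) of the 9 tested genes of the inhibitor and pocket protein list, KO in red left of wild type in blue. Cdkn1c is higher in all KO replicates, and Rb1, Rbl1, Cdkn1a, Cdkn1b and Cdkn2c are lower.

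Other cyclins, kinases and E2F factors gave 0 calls among 20 tested, with 3 higher and 2 lower at an unadjusted p under 0.05, against 8.45% and 8.68% of all genes, and a median difference of 0.16. E2f2, an activating E2F factor, read 55.8, 26.8 and 102 in KO replicates 1, 2 and 3, against 306, 236 and 163 in wild-type replicates 1, 2 and 3. The KO values were all lower, by -1.77 ± 0.38 (SE; limma adjusted p = 0.0907). E2f3, another activating factor, went the opposite way, at 126 ± 22.2 in KO cells and 68.0 ± 17.6 in wild-type cells (± SD over 3 replicates of each), a difference of 0.77 with an adjusted p of 0.119. Mybl2, which encodes B-MYB, averaged 380 ± 41.7 in KO cells and 619 ± 63.4 in wild-type cells (± SD over 3 replicates of each), a difference of -0.68 with an adjusted p of 0.0984.

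Wider sets of replication and mitotic genes gave no calls either. Of 32 other replication genes tested, 0 passed, and 0 were higher and 3 lower at an unadjusted p under 0.05 (9.38%, against 17.1% of all genes). The 3 lower stand beside 8.68% of all genes, and the median difference was -0.09. Orc3, of the origin recognition complex, averaged 30.0 ± 6.72 in KO cells and 54.0 ± 8.11 in wild-type cells (± SD over 3 replicates of each), a log2 difference of -0.61. Lig1, the ligase that joins Okazaki fragments, averaged 442 ± 53.9 in KO cells and 650 ± 131 in wild-type cells (± SD over 3 replicates of each), a difference of -0.53, and Dut, the dUTPase, differed by -0.54. Their adjusted p values were 0.139, 0.214 and 0.321. Of 35 other mitotic genes tested, 0 passed, and 2 were higher and 4 lower at an unadjusted p under 0.05. Together these were 17.1%, the same share as over all genes, and the median difference was -0.10. Dlgap5, a spindle assembly factor, averaged 94.1 ± 33.4 in KO cells and 43.0 ± 1.71 in wild-type cells (± SD over 3 replicates of each), a log2 difference of 0.86. Nusap1, a spindle-associated protein, averaged 562 ± 98.3 in KO cells and 1017 ± 202 in wild-type cells (± SD over 3 replicates of each), a difference of -0.83, and Ndc80, of the kinetochore, differed by -0.53. Their adjusted p values were 0.120, 0.111 and 0.238.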

How the data were processed

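Per the labels' protocols, biotin-labelled total RNA of each sample went onto an Illumina array. The deposited table holds 1 linear intensity per probe and array for 25697 probes. Of the authors' software for these values, the sources used here give no name. On each array 27.1% to 27.3% of the values were negative, as after background subtraction. The 75th percentile was 98.8 on KO array 1, and the maximum over all arrays was 20141. Identical values recurred on different arrays, such as 17836 for Krt14 on wild-type arrays 1 and 3, as after quantile normalization. A table of non-normalized signals was not used, because its 16 value columns match no sample label.

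An offset of 16 was added before log2, which understates changes of dim genes. Negative values mirrored around 0 gave the background limit of 6.30 (5% of mirrored noise above it). A probe was kept above the limit on at least 3 arrays, and the probe with the highest mean was tested for each gene, 9881 genes in all. Probe names came from the platform annotation, in which 23978 probes had 1 symbol, 0 several and 1719 none, and 23962 gene IDs were found in the GRCm38.p6 gene table. The array pairs KO 3 with 1.1 and wild-type 1 with 1.1 were averaged, and limma 3.58.1 (lmFit, eBayes; R 4.3.3) compared 3 KO with 3 wild-type replicates without a block. A gene was called at a Benjamini-Hochberg adjusted p under 0.05 over all genes, and the fit was tested on simulated data. The number of arrays limits the precision.

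The members, lists and the averaging were chosen with earlier results of these data known. All members could be named, and of each further list every called gene or else the 3 with the largest difference. Alternatives changed the averaging, block, offset, filter, probe choice, centring, prior, array weights and each replicate in turn. Figures were drawn with matplotlib 3.10.9.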

Additional observations from a re-analysis of the deposited data

How the results depend on the processing

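Over 17 alternatives the S-phase median ran from -0.22 to 0.08 and the mitotic median from -0.16 to 0.08, each within the replicate SD of 0.18 of its value. Their difference, 0.036 in the main setting, ran from -0.049 to 0.12 when each replicate was left out in turn. Both ends lay further from 0.036 than its replicate SD of 0.077, and the sign changed, so which set is higher is not settled. The number of members called was 0, except for 2 with array weights (Ccnd1 and Kif11) and 1 without wild-type replicate 3 (Ccnd1). At an unadjusted p under 0.05 there were 3 members, against 17.1% of all genes. There were 7 with arrays averaged as labelled (20.1% of all genes), 6 with array weights (29.4%) and 5 without KO replicate 2 (12.6%). Members without overlap numbered 5, and 8 with arrays averaged as labelled, 13 without KO replicate 2, 10 without KO replicate 3 and 9 without wild-type replicate 2. The share of all genes without overlap, 22.5% in the main setting, was not counted in these alternatives. With a replicate left out, fewer values have to lie apart, so those higher counts are not a result about the members. The 8 with arrays averaged as labelled has no share beside it and is not read as one either. Over all genes 70 were called, 261 with arrays averaged as labelled, 940 with array weights, and 11, 9 or 264 without KO replicate 1, 2 or 3 and 5 or 8 without wild-type replicate 1 or 2. With a replicate block 21 genes and 0 members were called. Same-numbered replicates did not deviate together (correlations 0.06, 0.02 and -0.35), so the numbers were not taken to pair the samples.

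The sign held in every alternative for 16 of 33 members and changed for the 17 given next, none of them called in either case. Without both 1.1 arrays Cdk1 differed by 0.010. With the mean of bright probes Cdk1 differed by 0.030 and Cdc25c by 0.085, and with ribosomal centring by 0.0068 and 0.0064. With array weights the differences were 0.13 for Ccnd2, 0.034 for Mcm2, 0.069 for Mcm3, 0.016 for Mcm5, 0.10 for Cdc6, 0.039 for Rrm1, 0.029 for Prim1, 0.25 for Cdk1, 0.050 for Cdc25c and 0.059 for Aurka. Leaving out each replicate gave -0.24 to 0.14 for Ccnd2, -0.25 to 0.17 for Mcm2, -0.21 to 0.10 for Mcm3, -0.28 to 0.17 for Mcm5, -0.31 to 0.28 for Cdc6, -0.17 to 0.30 for Cdt1, -0.14 to 0.031 for Rrm1 and -0.13 to 0.10 for Prim1. It gave -0.095 to 0.16 for Top2a, -0.26 to 0.25 for Cdk1, -0.15 to 0.15 for Cdc25c, -1.90 to 0.04 for Plk1, -0.21 to 0.058 for Aurka, -0.11 to 0.30 for Bub1b, -0.015 to 0.30 for Birc5, -0.16 to 0.19 for Ube2c and -0.30 to 0.070 for Foxm1. With no change of sign, leaving out each replicate gave -0.47 to -0.19 for Pcna, -0.64 to -0.27 for Rfc4, -0.48 to -0.24 for Cdk2, -0.48 to -0.19 for Cenpa, -0.37 to -0.12 for Cdc20, -0.50 to -0.19 for Tyms and -0.22 to -0.02 for Mcm4. It gave 0.21 to 0.94 for Mcm7, 0.27 to 0.57 for E2f1, 0.13 to 0.44 for Rrm2, 0.08 to 0.52 for Ccne1, -0.44 to -0.13 for Ccne2 and 0.11 to 0.39 for Ccna2. The cause of these changes was not tested. Where 1 replicate is left out, 5 replicates remain.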

Other observations

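Of the 5 probes on which wild-type replicate 1 differed from every other array by over 2 on the log2 scale, the widest gap was that of the agouti gene a, whose product directs yellow pigment. It read 1744, 2044, 452 and 476 on KO arrays 1, 2, 3 and 1.1, against -2.68, 2360, 1318 and 2.30 on wild-type arrays 1, 2, 3 and 1.1. The next were the Plk1 probe and the deviating Mcm6 probe, with gaps of 3.17 and 2.54. The other probes were those of Sostdc1, a secreted antagonist of bone morphogenetic proteins, and Tgfbi, a matrix protein, both brighter on wild-type 1 and 1.1. All 8 arrays carry the same strain label.

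On wild-type replicate 3 the probes that stood apart included Ttr, Trf, Ambp, Apoa1 and Serpina1b, genes of secreted liver proteins, at 3828, 1961, 1248, 1289 and 651 against at most 16.5 for any of them elsewhere. On KO replicate 3 they included Prss27, Prl2c3, Cldn3 and Arg1.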
